A study of Mus musculus with 11 samples.

Results

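The 5 genes that lie near Nfasc on mouse chromosome 1 and are reported here, Mcm6, Ctse, Nav1, Tnni1 and Crb1, were examined across all 11 libraries of the series, out of 22609 genes in the count table. They were chosen with results in view, because their levels in the libraries of the AnkG single knockout stood apart from those of every other genotype and because they lie within 20 Mb of Nfasc. Their AnkGKO values are therefore a description, and tests of these 5 genes are read only in comparisons without an AnkGKO library. These tests are not free of the choice either, because a gene moved in DKO as in AnkGKO would not have stood apart. Where calls in AnkGKO comparisons are counted, for these and for other genes, they come from the fit over all genes, and nothing is read from those of the 5. All 5 genes had at least 10 counts over the 11 libraries, the minimum that 17557 genes of the table passed.

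Bulk polyadenylated RNA was sequenced from mice labelled as untreated littermates, and the tissue was labelled cerebellar hemisphere. The groups were control (3 libraries; the series description gives NfascFx/Fx;AnkGFx/Fx and names no Cre), NFKO (3 libraries, Pcp2-Cre;NfascFx/Fx), AnkGKO (2 libraries, Pcp2-Cre;AnkGFx/Fx) and DKO (3 libraries, Pcp2-Cre;NfascFx/Fx;AnkGFx/Fx). AnkGKO was thus the only genotype whose label carried no floxed Nfasc allele, and the effect of that allele cannot be told apart from the other ways in which the AnkGKO mice differed from the rest. The study's methods also allow mice with only 1 of the floxed alleles among the controls, and the labels do not say which control library came from such a mouse. The Pcp2 promoter drives Cre mainly in Purkinje cells, so other cell types of the dissected tissue were expected to keep both genes. The labels give the age as postnatal day 30 in the sample descriptions and postnatal day 32 in the protocol, the sex as mixed, and the strain as C57BL/6J in the descriptions and as a mixed C57BL/6J;129 background in the protocol. All libraries carry the same batch label. Nothing in the labels says which strain a mouse carried around Nfasc.

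Nfasc encodes neurofascin, an adhesion molecule of the axon initial segment and the node of Ranvier, and Ank3 encodes ankyrin G, the scaffold that anchors it. The genes examined here have unrelated jobs. Mcm6 encodes a subunit of the MCM helicase, which is loaded onto DNA to license replication. Nav1 encodes neuron navigator 1, a microtubule-associated protein of growing neurites. Tnni1 encodes the slow skeletal muscle form of troponin I, the inhibitory subunit of the troponin complex. Ctse encodes cathepsin E, an intracellular aspartic protease. Crb1 encodes a Crumbs protein, a membrane protein of apical cell junctions that is best known from the retina. What they share with Nfasc is a stretch of chromosome, not a pathway.

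On the GRCm39 build, Nfasc lies on the minus strand at chr1:132492428-132669564. Mcm6 (chr1:128259311-128287516, minus strand) lies 4.2 Mb before it and Ctse (chr1:131566009-131603243, plus strand) 0.889 Mb before it, measured between the nearest ends. Nav1 (chr1:135362318-135616086, minus strand) lies 2.69 Mb after it, Tnni1 (chr1:135707172-135738727, plus strand) 3.04 Mb after it and Crb1 (chr1:139124794-139304848, minus strand) 6.46 Mb after it. The stretch from Mcm6 to Crb1 spans 11.05 Mb. In the annotation Mcm6, Tnni1 and Crb1 overlap no other gene, Ctse overlaps the lncRNA Gm69631 on the opposite strand, and Nav1 overlaps 8 short or noncoding annotations, 4 of them on the opposite strand. The libraries were strand-specific but the strand setting of the counting is not given in the sources used here, so reads of such overlapping genes cannot be told apart. The share of 50-base transcript words that also occur in another gene was 0.343% for Mcm6, 0% for Ctse, 3.08% for Nav1, 0.407% for Tnni1 and 0.262% for Crb1.

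The sequence before the start of each gene's canonical transcript is shown because the genes differed in the same 2 libraries but in opposite directions, and a reader may want to set their promoters side by side. Each is 5′ to 3′ on the gene's own strand, 250 bases read from GRCm39, with capitals marking matches to any of 5 motifs searched on both strands: TATAAA as the box of that name, CCAAT likewise, GGGCGG as the usual GC box, CAGCTG as an E-box of muscle genes, and either TTTCCCGC or the related word TTTGGCGC as sites of the cell cycle factor E2F. For Mcm6 the 64 bases next to the start lie in an exon of other Mcm6 transcripts and are not printed.
Mcm6 (chr1:128287517-128287702, minus strand): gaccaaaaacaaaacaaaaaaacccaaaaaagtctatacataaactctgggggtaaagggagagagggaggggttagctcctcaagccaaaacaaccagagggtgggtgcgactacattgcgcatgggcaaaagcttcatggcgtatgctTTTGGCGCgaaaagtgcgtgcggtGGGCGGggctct
Nav1 (chr1:135616087-135616336, minus strand): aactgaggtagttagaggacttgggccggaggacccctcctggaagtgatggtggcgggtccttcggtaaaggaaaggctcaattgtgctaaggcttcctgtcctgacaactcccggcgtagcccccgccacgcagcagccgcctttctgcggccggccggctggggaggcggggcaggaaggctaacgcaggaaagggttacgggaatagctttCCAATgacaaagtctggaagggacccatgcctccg
Tnni1 (chr1:135726890-135727139, plus strand): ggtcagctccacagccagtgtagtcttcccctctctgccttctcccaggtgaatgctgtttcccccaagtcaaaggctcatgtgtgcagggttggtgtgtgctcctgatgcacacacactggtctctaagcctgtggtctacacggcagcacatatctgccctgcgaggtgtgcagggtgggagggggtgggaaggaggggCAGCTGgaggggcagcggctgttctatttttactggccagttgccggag
Ctse (chr1:131565759-131566008, plus strand): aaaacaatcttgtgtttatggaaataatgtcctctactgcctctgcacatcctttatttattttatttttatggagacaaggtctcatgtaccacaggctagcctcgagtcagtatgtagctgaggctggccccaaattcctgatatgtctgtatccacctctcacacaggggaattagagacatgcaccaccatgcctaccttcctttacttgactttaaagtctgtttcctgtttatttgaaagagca
Crb1 (chr1:139304849-139305098, minus strand): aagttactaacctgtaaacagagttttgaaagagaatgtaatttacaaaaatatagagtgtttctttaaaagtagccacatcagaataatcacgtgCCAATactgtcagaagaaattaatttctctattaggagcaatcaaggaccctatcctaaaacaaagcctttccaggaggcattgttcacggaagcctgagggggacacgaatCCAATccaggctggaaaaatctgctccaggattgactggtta

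The full 250 bases of Mcm6 held 2 E2F matches, of which 1 is printed, and 1.62% of the 21757 protein-coding promoters of the same length held any. Mcm6 also had 1 GC box, present in 36.3% of promoters. CCAAT matches were found once in Mcm6, in the bases not printed, once in Nav1 and 2 times in Crb1, and in 36.5% of promoters. The CAGCTG match of Tnni1 is a motif of 11.9% of promoters, and TATAAA, found in none of the 5, also occurred in 11.9%. No match overlapped another. The promoters of Mcm6 and Nav1 held 13 and 15 CpG dinucleotides and those of Ctse, Tnni1 and Crb1 held 1, 4 and 3, against a median of 8 over all promoters. No motif searched was common to the 3 genes with the higher AnkGKO levels, or to the 2 with the lower ones. A match is a stretch of letters and not a shown binding site.

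The libraries held 38890851 to 55822361 counts on named genes, so that 3 counts equalled 0.0546 to 0.0780 CPM, the unit of counts scaled to library size used below (with trimmed-mean-of-M-values scaling, TMM). Ank3 lay at 353 to 407 CPM in the control and NFKO libraries, at 156 and 200 CPM in AnkGKO and at 160 to 185 CPM in DKO. Nfasc lay at 559 to 718 CPM in 10 libraries and at 953 CPM in AnkGKO 2, a total that counts every isoform and every cell type. Granule cell markers of the cerebellum summed to 515 and 441 CPM in control 1 and NFKO 1 and to 81.5 to 134 CPM elsewhere, and Gabra6 among them ranged from 0.02 to 84.2 CPM. Hox genes of the caudal nervous system, which the cerebellum lacks, summed to 265 to 401 CPM in every library. The labelled tissue was therefore not borne out by its defining markers in most libraries. Xist, the transcript of the inactive X chromosome, was under 2 CPM in 6 libraries, namely control 3, the NFKO libraries and both AnkGKO libraries, so that the sexes were not balanced over the genotypes. In bulk RNA, fewer cells of a type and less RNA per cell cannot be told apart.

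Mcm6, the replication gene, was expressed at a low level in every genotype except AnkGKO. It stood at 1.87, 1.43 and 1.33 CPM in the control libraries, at 1.95, 1.5 and 1.52 CPM in NFKO, at 9.16 and 7.95 CPM in AnkGKO and at 1.10, 1.77 and 1.04 CPM in DKO. Both AnkGKO libraries lay above all others, and the remaining genotypes overlapped one another. In raw counts, the AnkGKO libraries held 444 and 366 Mcm6 counts and the other 9 held 47 to 102. The mean was 8.56 ± 0.86 CPM (SD, n = 2) in AnkGKO and 1.54 ± 0.29 CPM (SD, n = 3) in control, a fitted 5.54-fold difference. On the log2 scale AnkGKO exceeded control by 2.47 (SE 0.25), NFKO by 2.36 (SE 0.25) and DKO by 2.72 (SE 0.25).

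Most partners of Mcm6 in replication licensing overlapped the other genotypes. Of 23 genes listed for the MCM helicase, its loaders and its activators, 0 were called by edgeR in any of the 7 comparisons, where called means an adjusted p under 0.05 with a log2 fold change of 0.6 or more in either direction. Over all genes tested edgeR called 0.0228 to 0.615% in a comparison. A count of 0 in so short a list therefore says little, here and for the lists of related genes below. The median log2 difference of the 23 genes between AnkGKO and the mean of the other genotypes was 0.04, against 0.00 over all genes tested, with a range of -0.24 to 0.80. Mcm2, a subunit of the same helicase ring, was at 9.26 and 7.80 CPM in AnkGKO and at 6.24 to 10.02 CPM elsewhere. Mcm3, another subunit, was at 4.99 and 3.997 CPM in AnkGKO and at 3.48 to 5.36 CPM elsewhere, so both overlapped the other genotypes. Gins1, a subunit of the GINS complex that activates the helicase, was at 1.18 and 1.13 CPM in AnkGKO and at 0.364 to 0.988 CPM elsewhere, so both AnkGKO libraries lay above the rest. Its log2 difference of 0.80 was the highest of the list, and DESeq2 called it against DKO. Markers of cycling cells, among them Mki67, were also measured beside Mcm6. All 6 were detected, and their sum was 7.80 and 6.82 CPM in AnkGKO, inside the 2.89 to 8.98 CPM of the other libraries.

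Nav1 was the most abundant of the 5 genes, and its AnkGKO levels differed from the others by the smallest factor. It stood at 86.7, 96.0 and 94.4 CPM in control, at 95.4, 97.9 and 80.5 CPM in NFKO, at 151 and 155 CPM in AnkGKO and at 95.8, 91.7 and 83.9 CPM in DKO. The 9 other libraries formed one narrow band, and both AnkGKO libraries lay above it. The mean was 153 ± 2.6 CPM (SD, n = 2) in AnkGKO and 92.4 ± 5.0 CPM (SD, n = 3) in control, a fitted 1.66-fold difference. AnkGKO exceeded control by 0.73 (SE 0.09) on the log2 scale, NFKO by 0.75 (SE 0.09) and DKO by 0.76 (SE 0.09). Per kilobase of annotated exon, Nav1 in control was at 4.85 CPM per kb, followed by Ctse at 0.586, Mcm6 at 0.284, Tnni1 at 0.227 and Crb1 at 0.140. In that order Mcm6 and Tnni1 overlapped within their SDs of 0.0529 and 0.0552 CPM per kb.

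The other navigators did not stand apart in AnkGKO. Nav2 was at 44.5 and 49.1 CPM in AnkGKO and at 40.5 to 51.1 CPM elsewhere. Nav3 was at 23.6 and 21.1 CPM in AnkGKO and at 15.4 to 24.8 CPM elsewhere. Both ranges of AnkGKO lay inside those of the other genotypes. Of the 11 listed navigators and microtubule plus-end proteins, 0 were called by edgeR in any comparison, and their median log2 difference was 0.03, with a range of -0.15 to 0.14.

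Tnni1, the slow muscle troponin, showed the largest factor of the 5 against control. It stood at 0.70, 0.70 and 1.05 CPM in control, at 0.78, 2.27 and 0.91 CPM in NFKO, at 8.32 and 7.73 CPM in AnkGKO and at 0.63, 1.42 and 0.78 CPM in DKO. Both AnkGKO libraries were above all others, and among the rest NFKO 2 and DKO 2 were the highest. The AnkGKO libraries held 403 and 356 Tnni1 counts and the others 27 to 118. The mean was 8.02 ± 0.41 CPM (SD, n = 2) in AnkGKO and 0.818 ± 0.199 CPM (SD, n = 3) in control, a fitted 9.79-fold difference. AnkGKO exceeded control by 3.29 (SE 0.45) on the log2 scale, NFKO by 2.60 (SE 0.44) and DKO by 3.09 (SE 0.45). Without NFKO 2 and DKO 2, the libraries with the highest skeletal muscle markers, the difference from the mean of the other genotypes was 3.35, beside 2.99 with all libraries.

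Skeletal muscle markers were low in the AnkGKO libraries, as they were in NFKO 3, DKO 1 and DKO 3. The 8 skeletal muscle markers, all detected and among them Acta1 and Ckm, summed to 3.90 and 3.35 CPM in AnkGKO and to 3.73 to 321 CPM elsewhere, with the high values in NFKO 2 at 321 and DKO 2 at 152 CPM. The 5 markers of slow muscle, among them Myh7, summed to 5.24 and 2.43 CPM in AnkGKO and to 4.50 to 21.8 CPM elsewhere. AnkGKO thus lay at the low end of the skeletal muscle sum, whereas for slow muscle AnkGKO 1 lay within the other libraries and AnkGKO 2 below them. Tnni2, the fast muscle paralog of Tnni1, was at 0.35 and 0.17 CPM in AnkGKO and at 0.16 to 24.98 CPM elsewhere. Tnni3, the cardiac paralog, was at 0.54 and 0.50 CPM in AnkGKO and at 0.37 to 0.87 CPM elsewhere. Neither paralog stood apart in AnkGKO. Of the 7 listed troponins 0 were called by edgeR in any comparison, and their median log2 difference was -0.84, with a range of -7.25 to 0.42 in which the lowest values belong to genes that were high in NFKO 2 and DKO 2.

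Ctse, the aspartic protease, was lowest in AnkGKO. It stood at 1.56, 2.66 and 1.67 CPM in control, at 3.39, 3.51 and 3.94 CPM in NFKO, at 0.54 and 0.37 CPM in AnkGKO and at 4.34, 3.5 and 3.66 CPM in DKO. AnkGKO was below every other library, control lay between, and the NFKO and DKO libraries were the highest and overlapped each other. In counts, AnkGKO held 26 and 17, and the others 60 to 212. The mean was 0.453 ± 0.118 CPM (SD, n = 2) in AnkGKO and 1.96 ± 0.61 CPM (SD, n = 3) in control, a fitted 4.32-fold lower level. AnkGKO lay at -2.11 (SE 0.29) on the log2 scale relative to control, at -2.98 (SE 0.29) relative to NFKO and at -3.07 (SE 0.29) relative to DKO.

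None of the related proteases separated AnkGKO from all other libraries as Ctse did. Ctsa, a lysosomal carboxypeptidase, was at 143 CPM in both AnkGKO libraries and at 130 to 155 CPM elsewhere. Ctsb, a lysosomal cysteine protease, was at 928 and 879 CPM in AnkGKO and at 814 to 995 CPM elsewhere. Of the 17 cathepsins and aspartic proteases listed, 16 were tested and 0 were called by edgeR in any comparison, with a median log2 difference of 0.02 and a range of -2.06 to 0.43, whose lowest value belongs to Ctsg, with 1 and 0 counts in AnkGKO. Microglia and red blood cells are known sources of cathepsin E, and their markers were measured beside it. The 5 microglial markers, all detected, summed to 311 and 321 CPM in AnkGKO, 235 to 292 in control, 272 to 293 in NFKO and 260 to 340 in DKO. The 3 erythroid markers tested of 4 listed, all detected, summed to 269 and 349 CPM in AnkGKO, 185 to 225 in control, 376 to 430 in NFKO and 211 to 354 in DKO. Neither sum was lowest in AnkGKO, the erythroid sum like Ctse was lower in control than in NFKO, and the part of either cell type in the Ctse levels was not tested.

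Crb1, the junction protein, was also lowest in AnkGKO. It stood at 1.87, 1.89 and 2.31 CPM in control, at 1.93, 1.58 and 1.77 CPM in NFKO, at 0.45 and 0.48 CPM in AnkGKO and at 2.17, 1.98 and 1.87 CPM in DKO. Both AnkGKO libraries were below a band in which the other genotypes overlapped. Each AnkGKO library held 22 Crb1 counts, and the others held 72 to 103. The mean was 0.466 ± 0.017 CPM (SD, n = 2) in AnkGKO and 2.02 ± 0.25 CPM (SD, n = 3) in control, a fitted 4.33-fold lower level. AnkGKO lay at -2.11 (SE 0.23) relative to control, at -1.91 (SE 0.22) relative to NFKO and at -2.10 (SE 0.22) relative to DKO on the log2 scale.

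Its paralogs and partners differed by less. Crb2 was at 4.95 and 4.63 CPM in AnkGKO and at 4.12 to 5.62 CPM elsewhere. Crb3, with few counts throughout, was at 0.33 and 0.13 CPM in AnkGKO and at 0.26 to 0.49 CPM elsewhere, so that 1 AnkGKO library lay below the rest. Of 15 genes listed for the Crumbs complex and apical polarity 0 were called by edgeR in any comparison, with a median log2 difference of 0.01 and a range of -0.58 to 0.17. Pard6b, a polarity protein of this list, was at 4.25 and 4.04 CPM in AnkGKO and at 4.31 to 5.86 CPM elsewhere, a log2 difference of -0.24. Over the 5 lists together, 72 genes were tested, and in 2 of them, Gins1 and Pard6b, both AnkGKO libraries lay outside all others, or 2.78% beside 3.82% of all genes tested. Unadjusted edgeR p-values under 0.05 numbered 3, 6, 7 and 2 of the 72 in AnkGKO against control, NFKO, DKO and the others' mean. The shares of all genes tested were 5.39, 7.63, 8.48 and 5.84%. In NFKO against control, DKO against control and DKO against NFKO they numbered 10, 11 and 12, beside 7.69, 7.77 and 16.2%. DESeq2 called 0 to 2 of the 72 in a comparison. These were Gins1 in AnkGKO against DKO, the muscle troponins Tnnc2 and Tnnt3 in AnkGKO against NFKO with Tnnc2 also against the mean of the other genotypes, and the cysteine cathepsin Ctsh in NFKO against control and DKO against NFKO, and these 4 genes, Pard6b and Ctsg are named because of their values. Over all genes with a DESeq2 adjusted p, 0.582% were called in AnkGKO against control, 1.18% against NFKO, 0.613% against DKO and 0.548% against the mean of the other genotypes, and 2.53% in DKO against NFKO.

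**Figure D1:**
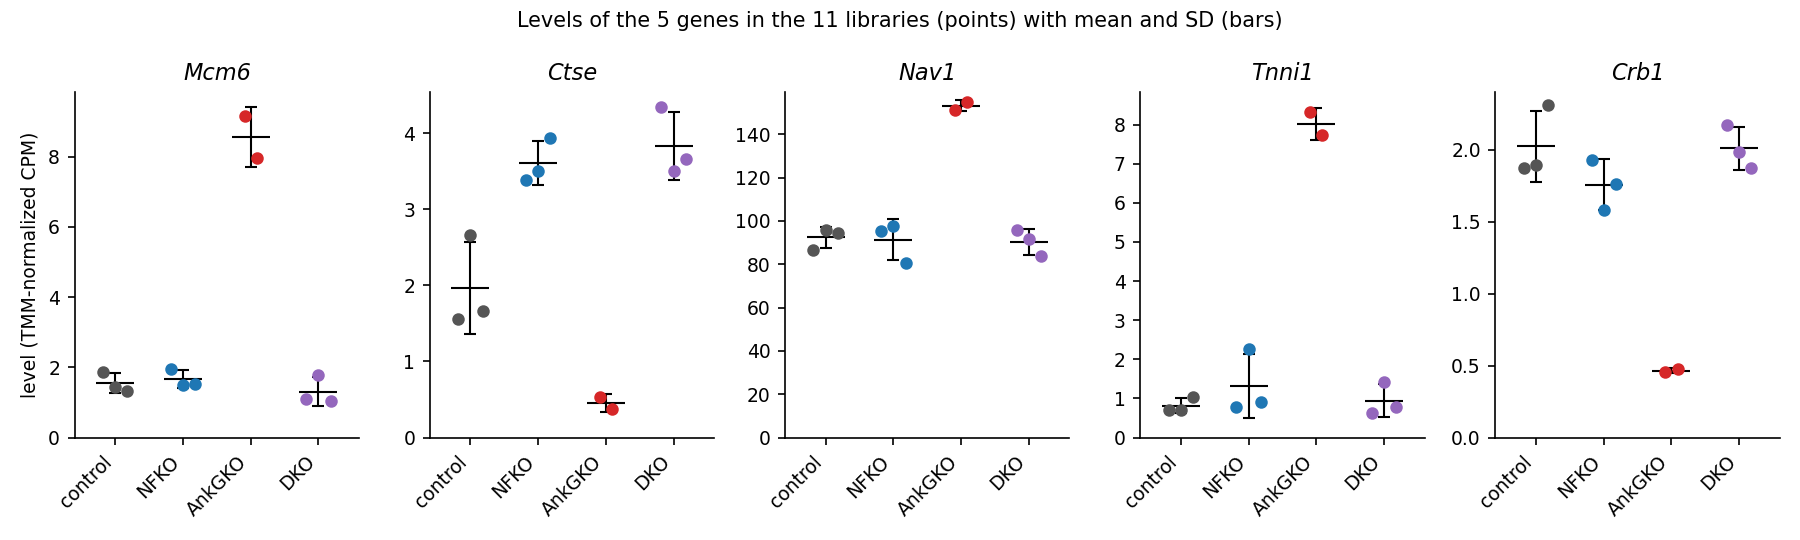
The plot shows the level of each gene (TMM-normalized CPM, linear axes from 0) in each library, grouped by genotype, with each group's mean as a dash and its SD as an error bar (n = 3, or 2 for AnkGKO). The red AnkGKO points lie above all others for Mcm6, Nav1 and Tnni1, reaching 9.16, 155 and 8.32 CPM, and below all others for Ctse and Crb1.

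**Figure D2:**
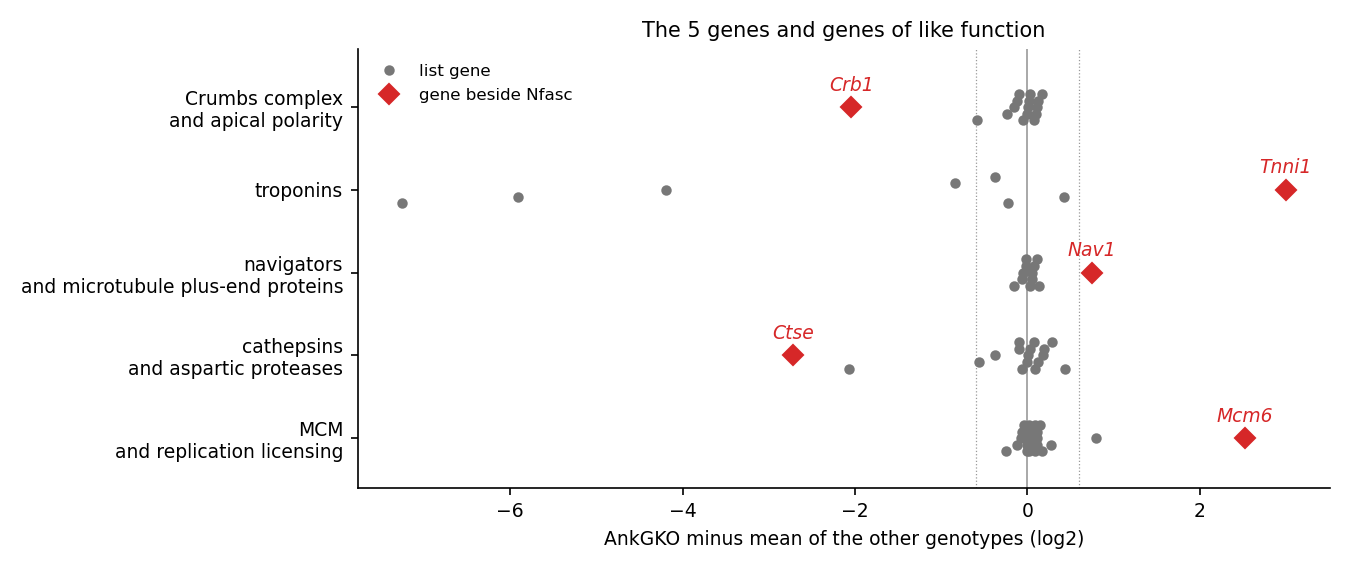
For each of the 5 genes (red diamonds) and the genes listed with it by function (grey points), the plot gives the log2 difference between AnkGKO and the mean of the other genotypes. The diamonds lie at 2.52 for Mcm6, 0.75 for Nav1, 2.99 for Tnni1, -2.72 for Ctse and -2.04 for Crb1, while 66 of the 72 list genes lie between the dotted lines at 0.6 and -0.6, the others being Gins1 above and Ctsg and 4 troponins below.

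Xist levels moved with the genotypes, since both AnkGKO libraries were among the 6 with under 2 CPM. Outside AnkGKO, where the choice of genes sets no direction, Mcm6 was at 1.33 to 1.95 CPM in the 4 libraries of low Xist and at 1.04 to 1.87 CPM in the 5 of higher Xist. Nav1 was at 80.5 to 97.9 and 83.9 to 96.0 CPM, and Tnni1 at 0.784 to 2.27 and 0.630 to 1.42 CPM. Ctse was at 1.67 to 3.94 and 1.56 to 4.34 CPM, and Crb1 at 1.58 to 2.31 and 1.87 to 2.17 CPM. For each of the 5 genes these ranges overlapped, and the part of sex in the AnkGKO levels was not tested.

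Ank3 was 0.490 times its control level in AnkGKO and 0.477 times in DKO. Between NFKO and DKO, which differ by the AnkG deletion on a floxed Nfasc background, Mcm6 differed by -0.35 (95% interval -0.86 to 0.15), Nav1 by -0.01 (-0.19 to 0.16) and Tnni1 by -0.49 (-1.40 to 0.43) on the log2 scale. Ctse differed by 0.09 (-0.38 to 0.56) and Crb1 by 0.19 (-0.19 to 0.58). None of the 5 was called by edgeR or by DESeq2 and 0 had an unadjusted p under 0.05 in either, with edgeR adjusted p-values of 0.479 to 0.958, and 0.615% of all genes tested were called in this comparison. A gene whose DKO level had moved with AnkGKO would not have been chosen, so the choice bears on these differences. The part of the AnkG deletion in the AnkGKO levels was not tested.

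In NFKO against control, only Ctse had an interval that left out zero. Ctse was 1.83-fold higher in NFKO, a log2 difference of 0.87 (SE 0.22, 95% interval 0.39 to 1.35), and the 3 NFKO libraries lay above the 3 controls. The edgeR test gave an adjusted p of 0.186 over all genes, so the gene was not called. DESeq2 did call it, with a log2 fold change of 0.87 and an adjusted p of 0.00923, and over the alternatives its adjusted p ranged from 0.00923 to 0.914. Mcm6 differed by 0.11 (-0.40 to 0.61), Nav1 by -0.02 (-0.20 to 0.16), Tnni1 by 0.69 (-0.24 to 1.62) and Crb1 by -0.20 (-0.59 to 0.18). The highest Tnni1 level of the comparison was that of NFKO 2, and without NFKO 2 and DKO 2 its difference was 0.05. By edgeR 0 of the 5 genes were called and 1 had an unadjusted p under 0.05, while 0.365% of all genes were called. DESeq2 called 1 of the 5, beside 0.945% of the genes for which it gave an adjusted p.

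DKO against control gave a like picture. Ctse was 1.95-fold higher in DKO, a log2 difference of 0.96 (SE 0.22, 95% interval 0.48 to 1.44), again with no overlap of the 3 DKO and 3 control libraries. The edgeR test gave an adjusted p of 0.427, so Ctse was not called, whereas DESeq2 called it at 0.96 with an adjusted p of 0.00832, in a range of 0.00832 to 0.896 over the alternatives. Both comparisons of Ctse share the 3 control libraries. Mcm6 differed by -0.25 (-0.76 to 0.26), Nav1 by -0.03 (-0.21 to 0.15), Tnni1 by 0.21 (-0.74 to 1.15) and Crb1 by -0.01 (-0.40 to 0.38). For Nav1 the intervals of all 3 comparisons without AnkGKO stayed within 0.21 of zero. By edgeR 0 of the 5 were called and 1 had an unadjusted p under 0.05, and 0.0228% of all genes were called. DESeq2 called 1 of the 5, beside 0.272% of the genes for which it gave an adjusted p.

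**Figure D3:**
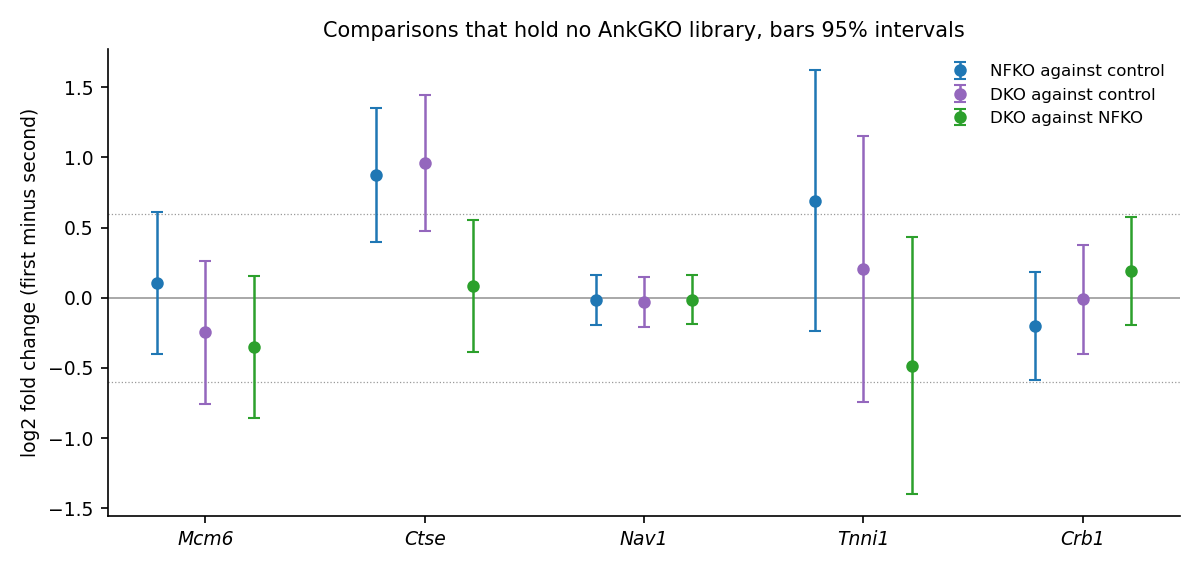
The plot gives the log2 fold change of each gene in the 3 comparisons without AnkGKO libraries, with 95% intervals from the edgeR fit and dotted lines at 0.6 and -0.6. Only the Ctse intervals for NFKO (0.39 to 1.35) and DKO (0.48 to 1.44) against control lie wholly on one side of zero.

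Most other genes around them differed by far less. Of 210 genes of the table within 20 Mb of Nfasc, 183 were tested. The number called by edgeR was 5 in AnkGKO against control, 7 against NFKO, 5 against DKO and 6 against the mean of the other genotypes, and the 5 genes that were chosen for it are in each count. Over all genes tested, 0.165%, 0.404%, 0.171% and 0.228% were called in these comparisons. Because the choice of the 5 genes used these contrasts, nothing is read from their count. In NFKO against control, DKO against control and DKO against NFKO, edgeR called 0 of the 183 genes, and DESeq2 called 2, 1 and 2. An unadjusted edgeR p under 0.05 was reached by 11, 13 and 30 of the 183, or 6.01, 7.10 and 16.4%, beside 7.69, 7.77 and 16.2% of all genes tested. The window count in AnkGKO against control was 3 without AnkGKO 1 and 2 without AnkGKO 2, in fits where the 1 library left is taken to vary like the other genotypes.

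The other genes called in the window were few. Tmem37, which encodes a calcium channel gamma-like subunit and lies 12.5 Mb before Nfasc, was at 0.97 and 0.65 CPM in AnkGKO and at 1.70 to 2.36 CPM elsewhere. It was called against NFKO (log2 -1.29, SE 0.25, edgeR adjusted p 0.047) and against the mean of the other genotypes (-1.34, SE 0.22, edgeR adjusted p 0.029). Chi3l1, a chitinase-like protein made by astrocytes, lies 1.44 Mb after Nfasc and was at 34.3 and 36.6 CPM in AnkGKO and at 40.8 to 63.8 CPM elsewhere. It was called against NFKO alone (-0.77, SE 0.10, edgeR adjusted p 0.005), and its difference from control was -0.37 (SE 0.10). Both thus lay below the other genotypes, like Ctse and Crb1. Outside the 5, 23 of 178 tested genes of the window (12.9%) had an unadjusted p under 0.05 in AnkGKO against control, beside 5.28% of the genes outside the window and 20 of the 378 tested genes (5.29%) within 20 Mb of Ank3. Both the window and the comparison are those by which the 5 were chosen, and no test was run on these shares.

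Most genes next to the 5 differed by less than the gene they adjoin. The 18 tested neighbours, 2 on each side of each gene, were called in none of the 7 comparisons by edgeR, and DESeq2 called Lad1 alone. Over all genes tested edgeR called 0.0228 to 0.615% in a comparison, so 0 of 18 says little. An unadjusted edgeR p under 0.05 was reached by 4 of the 18 in AnkGKO against control, beside 5.39% of all genes tested. It was reached by 3 in each other AnkGKO comparison, beside 5.84 to 8.48%. Without AnkGKO it was reached by 1 or 2, beside 7.69 to 16.2%. For the 15 with at least 10 counts in every library the log2 difference between AnkGKO and the mean of the others ran from -0.45 for Cxcr4 to 0.75 for Lad1. Lad1, a basement membrane protein gene 7.60 kb after Tnni1, was at 2.43 and 2.48 CPM in AnkGKO and at 1.07 to 1.87 CPM elsewhere, a separation whose edgeR adjusted p was 0.174. DESeq2 called it against the mean of the other genotypes (log2 0.76, adjusted p 0.0153) and against control (1.07, adjusted p 0.00219), so that whether it passed depended on the tool. Dars, an aminoacyl-tRNA synthetase gene 2.00 kb after Mcm6, was at 68.2 and 69.1 CPM in AnkGKO and at 53.4 to 61.6 CPM elsewhere, a log2 difference of 0.23 (SE 0.06). Ubxn4, before Mcm6, differed by 0.05 and Ipo9, 4.07 kb from Nav1, by -0.12. Nav1 and Tnni1 lie 91.1 kb apart, and the 2 tested genes between them, Csrp1 and Phlda3, differed by -0.07 (SE 0.08) and -0.03 (SE 0.07). Of the 104 other tested genes from Mcm6 to Crb1, 78 lay within 0.3 log2 of the other genotypes, the median of the 104 was 0.01, and Chi3l1 was the only one called by edgeR. DESeq2 calls over this whole stretch were not counted.

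**Figure D4:**
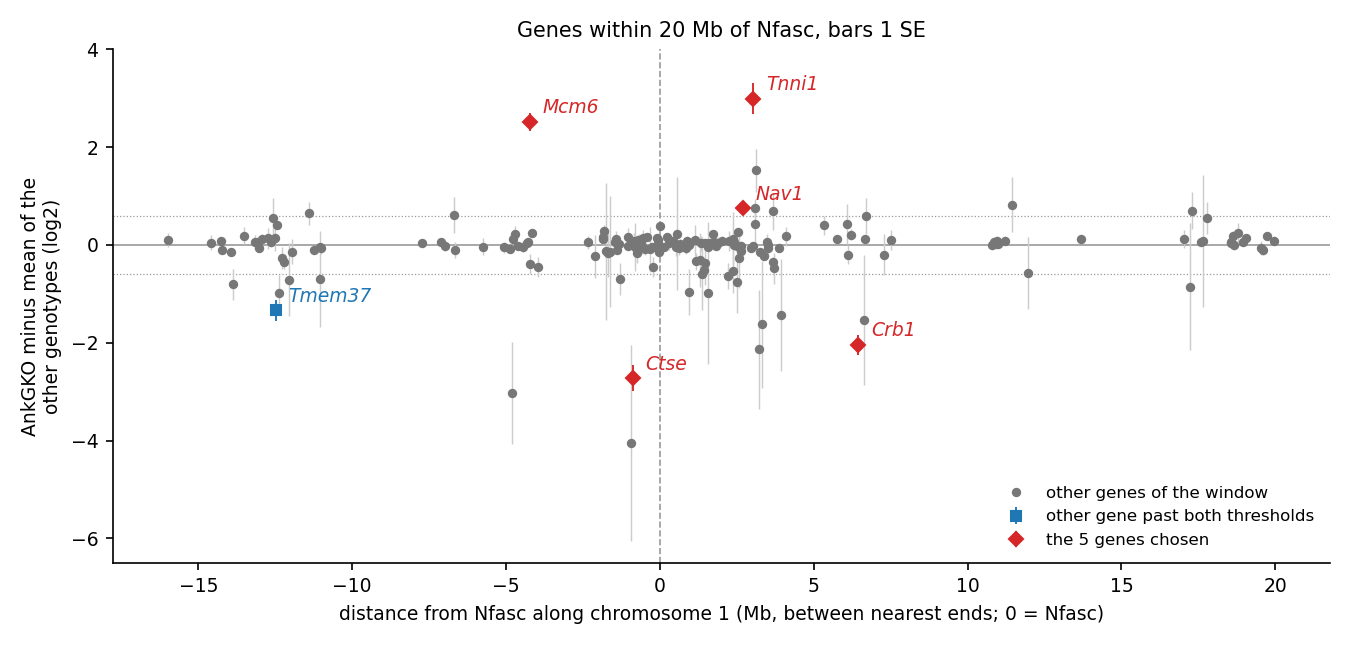
Each point is a tested gene within 20 Mb of Nfasc, at its distance from Nfasc in Mb (horizontal axis, negative before Nfasc) and its log2 difference between AnkGKO and the mean of the other genotypes (vertical axis), with 1 SE. The 5 genes (red) lie 0.889 to 6.46 Mb from Nfasc at -2.72 to 2.99, Tmem37 (blue) at -1.34, and most other genes lie near zero; low points with long bars, such as Avpr1b, are genes with few or no counts in AnkGKO.

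The nearest called gene of chromosome 1 beyond the window on each side lay well outside it. Gas5, a noncoding host gene of small nucleolar RNAs 28.2 Mb after Nfasc, was at 47.8 and 33.6 CPM in AnkGKO and at 19.6 to 24.6 CPM elsewhere, a log2 difference of 0.86 (SE 0.11, edgeR adjusted p 0.005) from the mean of the other genotypes. D2hgdh, a mitochondrial dehydrogenase gene 38.7 Mb before Nfasc, was at 8.79 and 7.97 CPM in AnkGKO and at 3.21 to 4.48 CPM elsewhere, a log2 difference of 1.08 (SE 0.12, edgeR adjusted p 0.002). Both were called in every AnkGKO comparison. Over the whole of chromosome 1, 9 of 1045 tested genes were called in AnkGKO against control, and 5 of these 9 were the genes chosen here. The farthest of the 5 from Nfasc is Crb1 at 6.46 Mb, well inside the 20 Mb limit, and the one nearest the 0.6 limit on the log2 scale is Nav1 at 0.73.

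Correlations among the 5 genes were strong with the AnkGKO libraries, which the choice of genes sets apart, and lower without them. Over the 11 libraries the absolute Pearson correlation of log2 CPM between pairs of them was 0.818 to 0.962, and over the 9 libraries without AnkGKO the correlation was -0.471 to 0.267. The libraries share their depth and dissection with every other gene, and the values are a description. Among 13910 genes with a mean of at least 1 CPM, the most like Mcm6 were Abhd1 (r = 0.98), D2hgdh (0.961) and Cwc22 (0.958). The most like Nav1 were Cwc22 (0.962), Kidins220 (0.951) and Mcm6 (0.929), and the most like Tnni1 were Herc6 (0.929), Nav1 (0.915) and Mcm6 (0.913). The most like Ctse were Ahcy (0.938), Eps8l1 (0.911) and Prune (0.906), and the most like Crb1 were Prune (0.941), Gucy1a3 (0.930) and Eps8l1 (0.929). Of these other genes D2hgdh alone lies on chromosome 1. Without the AnkGKO libraries these correlations ran from -0.202 for Mcm6 with Cwc22 to 0.812 for Mcm6 with Abhd1. For the gene most like each other member they were 0.269 (Nav1 with Cwc22), 0.473 (Tnni1 with Herc6), 0.803 (Ctse with Ahcy) and -0.116 (Crb1 with Prune).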

How the data were processed

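Polyadenylated RNA of 11 mouse libraries was analysed, grouped by their sample labels. Per the labels the authors trimmed reads with Trimmomatic 0.39 and aligned them to GRCm39 with STAR 2.7.11a; per the study's methods genes were counted during alignment by STAR, though the summary lines of the table carry the names that htseq-count uses. The deposited table of raw counts lists 22609 genes, and its 5 summary lines, 42.7 to 43.8% of the reads of a library, were left out. The second deposited table holds normalized signal, the counts divided by size factors of 0.815 to 1.16, and was used only to check the counts. A public table of gene positions, GENCODE vM39 on GRCm39, was matched by symbol for 18195 genes and by synonym for 2355.

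The 17557 genes whose counts summed to 10 or more were tested (two-sided) with edgeR 4.0.16 in R 4.3.3, in 1 robust quasi-likelihood model of the 4 genotypes with trimmed-mean-of-M-values (TMM) scaling. Adjusted p-values are Benjamini-Hochberg values over these genes. Called means an adjusted p under 0.05 with a log2 fold change of 0.6 or more in either direction. Standard errors are the absolute log2 fold change over the square root of the F statistic. Correlations used log2(CPM + 0.1). The 3-count floor gives a scale for low CPM values and enters no test. Replicates are separate libraries whose animals the labels do not name further, so p-values measure the spread between libraries. DESeq2 1.42.0 with a local dispersion fit, other scalings and filters, a replicate block, Xist as a covariate and leaving out libraries were alternatives; leaving out pairs of libraries by their marker sums was chosen after seeing the data. Both tools were checked on simulated counts. Libraries of the same number departed together from the means of their groups in control and NFKO (r = 0.251 to 0.577 over 3 pairs) but not in control and AnkGKO (r = -0.477 and -0.387), and the numbers come from the sample titles.

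The 5 genes, the lists of related genes, the marker lists and the tests were chosen with earlier results of these data known. Named are the 5 genes, Nfasc and Ank3, and some of the 2 nearest tested genes on each side of each of the 5. Also named are called genes of the window, the nearest called ones beyond it and the 3 genes most correlated with each of the 5. The first 2 genes of each list are named too.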

Additional observations from a re-analysis of the deposited data

How the results depend on the processing

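Of 695 recomputed log2 values of the 5 genes, 663 kept their direction and their side of the threshold or moved by less than the spread between replicates, and none of the 395 that involve AnkGKO turned direction. Of 306 recomputed counts of called genes, 288 stayed within 1.5 times the count reported. With the replicate block the counts of called genes in the window were 5, 6, 5 and 5 in the AnkGKO comparisons and 0 in the others, and no call of the 5 genes changed. The cause of each change below was not tested.

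With Xist as a covariate, 2 of the 5 genes (Mcm6 and Crb1) were called in AnkGKO against control and 3 in AnkGKO against DKO, in the window as among the 5. Over all alternatives, AnkGKO minus control in log2 was -2.41 to -1.83 (Ctse), 0.66 to 0.76 (Nav1) and 3.15 to 3.51 (Tnni1). Leaving out 1 library gave 2 to 5 window calls, and 2 to 5 of the 5 genes, in AnkGKO against control (2 without AnkGKO 2, 3 without AnkGKO 1), 4 to 7 window calls in AnkGKO against NFKO (4 without AnkGKO 1), 3 to 6 in AnkGKO against DKO, with 3 to 5 of the 5 genes (3 without AnkGKO 2), and 0 to 2 window calls in DKO against NFKO (2 without DKO 2). These calls of the 5 genes rest on the AnkGKO values that chose them and are given as a description, and a lone AnkGKO library was assumed to vary like the other groups. DESeq2 called 2 window genes in NFKO against control and 1 in DKO against control, of which Ctse is 1 in each, and 2 in DKO against NFKO; leaving out NFKO 2 and DKO 2 also gave 2 in DKO against NFKO.

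The log2 differences that turned direction were not called before or after. With 1 library left out, Mcm6 in NFKO against control ran from -0.0275 to 0.263 and Nav1 from -0.0713 to 0.0661. In DKO against control Nav1 ran from -0.0742 to 0.0205, Tnni1 from -0.21 to 0.42 and Crb1 from -0.0693 to 0.0937. In DKO against NFKO Ctse ran from -0.0116 to 0.147, Nav1 from -0.10 to 0.0404 and Tnni1 from -0.90 to 0.15. With Xist as a covariate Crb1 was 0.0513 in DKO against control, and Ctse -0.0937 and Nav1 0.0721 in DKO against NFKO. Without NFKO 2 and DKO 2, Tnni1 was -0.21 in DKO against control and Nav1 0.0329 in DKO against NFKO, and without control 1 and NFKO 1 Nav1 was 0.0206 there. The 2 AnkGKO libraries limit every AnkGKO value, and Ctse and Crb1 rest on 17 to 26 counts in each of them.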
